A study of Mus musculus with 2 samples.

Results

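Lymphatic endothelial cells line the sinuses of lymph nodes, and the cells described here are lymphatic endothelial cells of the mouse mesentery that carried RNA of the sinus genes Marco, Ackr4 or Stab2. They were selected on measured values. A selected cell had at least 1000 UMIs (unique molecular identifiers, each the tag of 1 RNA molecule), at most 10% of them mitochondrial, at least 1 UMI of the endothelial gene Cdh5, and at most 2 UMIs of the proliferation genes Mki67 and Top2a together. It also had UMIs of at least 2 of the 6 lymphatic genes Prox1, Flt4, Mmrn1, Reln, Pdpn and Lyve1, and at least 2 UMIs of Marco, Ackr4 and Stab2 together. In all, 92 of 11273 cells met these conditions, 49 of 6814 in the control library and 43 of 4459 in the Flcn iΔEC library.

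The study examined how endothelial loss of folliculin, the product of Flcn, affects blood and lymphatic vessels in newborn mice. For scRNA-seq, CD31+ cells were taken from the mesentery at P8 with magnetic Dynabeads, and 3′ libraries were made from the pooled cells of 3 mice per genotype, with 1 library per genotype. Both groups were C57BL/6 mice. According to the labels, both received 40 µg of 4-hydroxytamoxifen under the skin 4 times, at P2 and P3.5 and then at P5 and P6.5. The Flcn iΔEC mice carried loxP-flanked Flcn alleles (Flcn flox/flox) and Cdh5-BAC-CreERT2, a Cre recombinase made in endothelial cells that 4-hydroxytamoxifen activates. The other library is labelled as control, with no genotype in the labels. The Cre acts in blood as well as lymphatic endothelium, so an effect within the selected cells and one from the vessels around them cannot be told apart. Pooling hides any difference among the 3 mice of a genotype.

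In a lymph node, lymph enters the subcapsular sinus, passes between its ceiling and its floor and drains through the medullary sinuses. Ackr4, an atypical chemokine receptor that takes up Ccl19 and Ccl21 without signalling, is known from the ceiling, whereas the scavenger receptor Marco is known from medullary sinuses, and Stab2, an endocytic receptor for hyaluronan, marks several sinus cells. Folliculin acts with Fnip1 or Fnip2 at the lysosome and keeps the transcription factors Tfe3 and Tfeb, which drive lysosomal genes, out of the nucleus.

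The libraries held 64639756 UMIs in control and 60805779 in Flcn iΔEC, with medians of 7283 and 8587 UMIs per cell. They differed in sex-linked RNA: in the selected cells, Xist, which silences 1 X chromosome in females, had 0 UMIs in control and 1427 in Flcn iΔEC, and Ddx3y on the Y chromosome had 110 and 0. The other Y-linked genes gave 89 UMIs of Eif2s3y, 29 of Kdm5d and 33 of Uty in control and none in Flcn iΔEC. Sex and genotype cannot be told apart in these libraries. The libraries shared 6 barcodes, none of them from a selected cell. With 1 library per group there was no replicate and no test, each difference between the libraries is a description with no replicate check, and the 95% intervals in brackets cover counting error only.

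Flcn itself gave 15 UMIs in the selected control cells and 13 in the Flcn iΔEC cells, or 12.0 CPM [6.72 to 19.8] and 8.41 CPM [4.48 to 14.4], where CPM is the count scaled to 1000000 UMIs summed over a class of cells. The ratio of Flcn iΔEC to control was 0.701 [0.307 to 1.58]. The kit reads the 3′ ends of transcripts, and a 3′ tag outside the deleted part checks nothing, so these counts were not used to check the labels. Flcn lies at chr11:59791408-59810016 on the minus strand (GRCm38).

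The selected cells made up 0.719% [0.532 to 0.9496] of all control cells and 0.964% [0.699 to 1.30] of all Flcn iΔEC cells. Among cells passing the lymphatic conditions they were 38.3% [29.8 to 47.3] in control, 49 of 128 cells, and 9.49% [6.95 to 12.6] in Flcn iΔEC, 43 of 453 cells. So the Flcn iΔEC library held about as many selected cells among more lymphatic cells. The remaining lymphatic cells, 79 in control and 410 in Flcn iΔEC, had 0 or 1 UMI of the 3 sinus genes and served as the comparison. Of these, 28 and 121 were Lyve1-high (at least 3 Lyve1 UMIs), and 27 and 196 were Lyve1-low (at most 2 Lyve1 UMIs, with at least 2 of Pdpn, Mmrn1 and Reln together). The rest met neither condition. Any 2 of the 6 lymphatic genes sufficed, so the comparison can include other endothelial cells. The paper reports venous endothelial cells with Prox1 in Flcn iΔEC mice. Blood endothelial cells, with Cdh5 but none of the 6 lymphatic genes, numbered 330 and 220. The selected cells were deep, with medians of 17971 and 30479 UMIs, against 16381 and 24513 in the other lymphatic cells.

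The 3 sinus genes, which chose the cells, were mixed differently in the libraries. Ackr4 had 629 UMIs in control (503 CPM [465 to 544]) and 56 in Flcn iΔEC (36.2 CPM [27.4 to 47.0]). Marco had 137 and 172 UMIs (109.6 CPM [92.0 to 129.6] and 111 CPM [95.2 to 129]), and 70.8% of the control UMIs came from 1 cell, without which its level was 32.5 CPM. Stab2 had 79 and 99 UMIs (63.2 CPM [50.03 to 78.8] and 64.0 CPM [52.0 to 78.0]). Most control cells were thus chosen by Ackr4, and most Flcn iΔEC cells by Stab2. By the gene with most UMIs in a cell, 40 control cells were led by Ackr4, 6 by Stab2 and 3 by Marco, whereas in Flcn iΔEC 22 were led by Stab2, 10 by Ackr4 and 10 by Marco, with 1 tie. Each cell with Marco also had Stab2 (4 of 4 and 11 of 11), and Marco met Ackr4 in 1 control cell and in 0 of the 43 Flcn iΔEC cells.

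**Figure D1:**
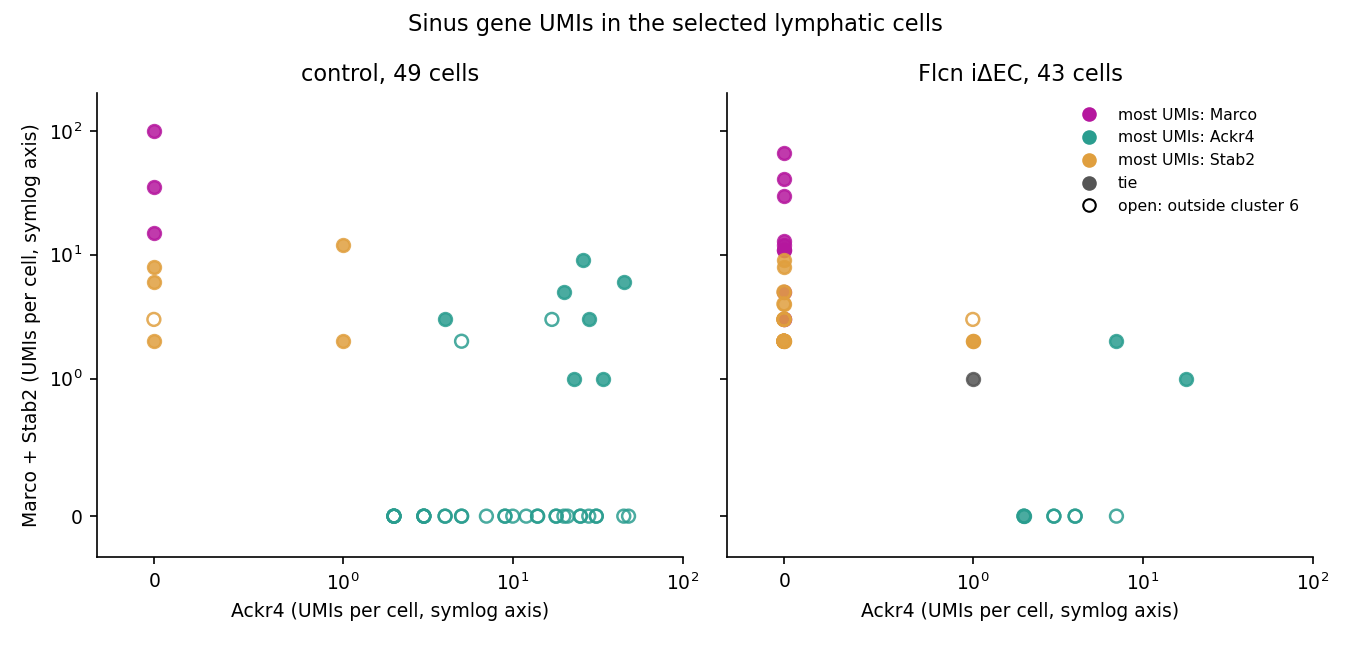
UMIs per selected cell of Ackr4 (x axis) against the sum of Marco and Stab2 (y axis), 1 panel per library, on scales that are logarithmic above small values, with colour for the leading gene and open points for cells outside the cluster that held most selected cells; some points overlap. Control cells lie mostly along the Ackr4 axis (40 of 49 led by Ackr4), and Flcn iΔEC cells mostly along the other axis (22 led by Stab2 and 10 by Marco of 43).

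Because depth differed, shares of cells with a UMI were compared after thinning each cell to 5000 UMIs, which left out none of the selected cells, 28 control and 13 Flcn iΔEC blood endothelial cells, and 555 and 162 cells with Ptprc (the leukocyte antigen CD45) and no Cdh5. Ackr4 was then seen in 67.3% [52.5 to 80.1] of selected control and 16.3% [6.81 to 30.7] of Flcn iΔEC cells (85.7% and 32.6% unthinned). Stab2 gave 20.4% [10.2 to 34.3] and 27.9% [15.3 to 43.7] (36.7% and 81.4% unthinned), and Marco 6.12% [1.28 to 16.9] and 11.6% [3.89 to 25.1] (8.16% and 25.6%). In blood endothelial cells, which should carry little of them and whose median depths were 9663.5 and 13123.5 UMIs, the thinned shares were 3.97% [2.07 to 6.84] and 3.86% [1.68 to 7.47] for Ackr4, 0% [0 to 1.21] and 0.483% [0.0122 to 2.66] for Stab2, and 0% [0 to 1.21] and 0% [0 to 1.77] for Marco. The cells with Ptprc, at medians of 7366 and 8077 UMIs, showed Marco in 0.151% [0.0606 to 0.310], Ackr4 in 0.108% [0.0350 to 0.251] and Stab2 in 0.258% [0.134 to 0.451] in control. The rule sets the shares in the selected cells, and Ackr4 was seen more often in blood endothelial cells than in cells with Ptprc, so what free RNA in the droplets adds was not measured by either.

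The threshold of 2 UMIs ran through a gradual distribution. In control, 8 lymphatic cells had 1 UMI of the 3 genes, 6 had 2 and 6 had 3, and 26 had 10 or more. In Flcn iΔEC the numbers were 33, 13, 10 and 8, so more of these cells stood close to the threshold. Just outside it, Flcn iΔEC cells with 1 UMI had 43.1 CPM of Madcam1 and 5.62 of Clec4g. Just inside, cells with 2 UMIs had 53.1 and 4.08 CPM, and cells with 10 or more had 393 and 96.7 CPM. Control cells with 1 and with 2 UMIs had 64.3 and 78.5 CPM of Madcam1, and 18.4 and 71.9 CPM of Clec4g, and those with 10 or more had 50.8 and 67.0 CPM, no more than those with 2. Lymphatic cells with 0 sinus UMIs had 311 CPM of Madcam1 in control and 72.4 in Flcn iΔEC, above the cells with 1 or 2, but 1.11 and 1.40 CPM of Clec4g.

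All 3 sinus genes are protein-coding genes on the minus strand of GRCm38. Marco (ENSMUSG00000026390) lies at chr1:120474538-120505024, Ackr4 (ENSMUSG00000079355) at chr9:104084157-104126933 and Stab2 (ENSMUSG00000035459) at chr10:86841198-87008025. Madcam1 (ENSMUSG00000020310), the addressin that gut-homing lymphocytes bind and a marker of the sinus floor, lies at chr10:79664559-79668537 on the plus strand. Their promoters are shown because the cells are defined by the first 3 genes and because Madcam1 was abundant in the cells led by Marco. They run from 250 bases before to 50 bases after the start, as given by RefSeq for GRCm38.p6, at chr1:120504975-120505274, chr9:104126594-104126893 and chr10:87007893-87008192 (minus strand) and chr10:79664309-79664608 (plus strand). Capitals mark GGG followed by any 2 bases and TTTCC, a pattern bound by NF-kappaB factors, which includes a narrower form with A as the first of the 2 bases. In all, 8 patterns were searched on both strands, with overlaps allowed, and the pattern in capitals and the promoter of Madcam1 were chosen after matches and values had been seen. Marco held 1 match, Madcam1 2, and Ackr4 and Stab2 0.
Marco: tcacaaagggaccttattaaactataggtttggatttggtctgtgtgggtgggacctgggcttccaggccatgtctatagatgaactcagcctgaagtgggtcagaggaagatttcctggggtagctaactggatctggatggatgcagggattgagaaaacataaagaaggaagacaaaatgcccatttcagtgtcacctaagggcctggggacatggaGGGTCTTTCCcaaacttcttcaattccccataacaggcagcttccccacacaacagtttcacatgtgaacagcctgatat
Ackr4: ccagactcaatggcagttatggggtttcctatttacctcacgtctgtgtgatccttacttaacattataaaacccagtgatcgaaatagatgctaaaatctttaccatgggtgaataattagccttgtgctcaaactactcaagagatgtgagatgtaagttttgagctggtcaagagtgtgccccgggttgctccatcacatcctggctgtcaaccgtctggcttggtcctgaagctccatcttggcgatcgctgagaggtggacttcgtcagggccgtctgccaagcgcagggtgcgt
Stab2: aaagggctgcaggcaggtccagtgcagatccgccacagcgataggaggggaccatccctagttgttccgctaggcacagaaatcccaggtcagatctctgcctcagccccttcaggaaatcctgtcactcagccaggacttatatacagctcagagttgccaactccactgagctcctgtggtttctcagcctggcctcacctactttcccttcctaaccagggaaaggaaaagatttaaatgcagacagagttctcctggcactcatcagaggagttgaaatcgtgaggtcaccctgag
Madcam1: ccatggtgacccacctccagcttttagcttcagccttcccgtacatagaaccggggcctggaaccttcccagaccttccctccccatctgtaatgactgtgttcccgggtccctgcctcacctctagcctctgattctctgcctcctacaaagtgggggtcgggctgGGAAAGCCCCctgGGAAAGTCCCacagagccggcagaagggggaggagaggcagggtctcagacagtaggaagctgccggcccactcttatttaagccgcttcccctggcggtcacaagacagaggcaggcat
The pattern occurs in 535 of 32851 promoters of this length (1.63%). Of the 21 sinus markers fixed here, 18 had a promoter in the table, and 4 of these held a match (Ccl20, Csf1, Madcam1 and Marco). The narrower form occurs in 135 promoters (0.411%) and in 2 of the 18 (Csf1 and Madcam1). In the same 18 promoters, CACGTG and TCACGTGA matched in 0, CATGTGAC in 1 (Mrc1), TGANTCA in 0, TTCNNGAA in 3 (Btnl9, F8 and Stab2) and AGATAA in 2 (Cd274 and Cd44). Over all promoters the last 4 of these (CATGTGAC, TGANTCA, TTCNNGAA and AGATAA, with N for any base) occur in 1.48%, 7.81%, 8.52% and 11.2%. A match is a description of letters in this window and no evidence of binding. Ccl2 and Ccl7 had no entry.

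Several markers of lymph node sinus cells that the rule did not use were abundant in the cells led by Marco and scarcer in those led by Ackr4. Other markers of the list went the other way. Btnl9 was at 38.5 and 8.59 CPM in the cells led by Marco and at 145 and 71.9 CPM in those led by Ackr4. Cd36 in control was at 46.3 and 404 CPM. Ccl2 had 1 UMI per library in the cells led by Marco, against 446 and 210 in those led by Ackr4, mostly from 1 cell each. Ptx3 was at 0 in the cells led by Marco. In the 3 control and 10 Flcn iΔEC cells led by Marco, Madcam1 reached 224 and 392 CPM and Itga2b, an integrin chain also known from platelets, 108 and 126 CPM. The lectin gene Clec4g was at 301 and 88.7 CPM, F8, which encodes coagulation factor VIII, at 162 and 306 CPM, and Bmp2 at 239 and 238 CPM. Csf1, the growth factor of macrophages, was at 293 and 140.2 CPM and the mannose receptor Mrc1 at 30.8 and 129 CPM. These cells had little RNA of the lymphatic markers Ccl21a (0 and 22.9 CPM), Nts (0 in both) and Mmrn1 (15.4 and 2.86 CPM), while Prox1, the lymphatic fate factor, stood at 208 and 183 CPM and the hyaluronan receptor gene Lyve1, 1 of the 6 lymphatic genes of the rule, at 709 and 879 CPM, above the 214 and 592 CPM of all selected cells. With 3 and 10 cells, 1 cell could move these levels by over 1.5-fold. Without the cell with most UMIs of the gene, Itga2b in control was at 64.3 CPM, Mrc1 at 14.1 and 84.4 CPM and Mmrn1 at 0 in both libraries, whereas Madcam1 was then at 184 and 345 CPM. Pf4, a gene known from platelets, was at 1179.5 and 68.7 CPM, or 267 and 40.9 without the cell with most of it, while Ppbp, Gp9 and Gp1bb of the platelet list were at 0 in them, and the source of Pf4 and Itga2b was not tested. A UMI of Ptprc was seen in 2 of 3 (66.7% [9.43 to 99.2]) and 6 of 10 (60.0% [26.2 to 87.8]) of them without thinning, and in 0 of 3 and 3 of 10 after thinning to 5000 UMIs.

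The 40 control cells led by Ackr4 looked otherwise. They had 9.11 CPM of Madcam1 and 8.10 of Clec4g, or 3.38 and 4.31 without the 1 cell that held most, and 6.07 of F8, against 467 of Prox1. They were rich in Nts (1215 CPM), Lbp (983), Fxyd6 (867) and Cav1, the coat protein of caveolae (1135). In Flcn iΔEC the 4 genes were at 716 (371 without 1 cell), 297, 522 and 697 CPM in the cells led by Ackr4 and at 683, 674, 573 and 526 CPM in those led by Stab2, so Lbp and Fxyd6 were not higher with Ackr4 there. In control, the connexin gene Gja4 (584 CPM) and Foxc2 (157 CPM), a transcription factor of lymphatic valves that also served here as a ceiling marker, were present too. The 22 Flcn iΔEC cells led by Stab2 carried Ccl21a at 4355 CPM, Mmrn1 at 824 and the sinus marker Ptx3 at 74.9. Lyve1, which capillary lymphatic cells also express, was at 693 CPM in them and at 1041 CPM in the 6 control cells led by Stab2, but at 37.5 and 46.9 CPM in cells led by Ackr4, or 16.5 and 23.6 without 1 cell each. The other lymphatic cells had 2.97 and 1.78 CPM of Clec4g and 6.44 and 4.75 CPM of F8, or 1.51 and 4.15 CPM in control without the 1 cell that held most. The control cells led by Stab2 had 158 CPM of Clec4g and 234 of F8, or 101 and 34.7 CPM without 1 cell each. In Flcn iΔEC, however, the cells led by Stab2 had 9.37 and 35.1 CPM, or 4.76 and 11.9 without 1 cell each, and those led by Ackr4 12.5 and 0 CPM, or 7.33 of Clec4g without 1 cell. Madcam1, in contrast, stood at 285 and 69.8 CPM in the other lymphatic cells, and so was higher there in control than in the 3 cells led by Marco. The name of lymph node sinus cells thus rests on Clec4g and F8 in the cells led by Marco, with Madcam1 shared by comparison cells, and Clec4g and F8 were low in cells led by Ackr4 in both libraries and in the Flcn iΔEC cells led by Stab2. The whole set is therefore called by its rule, the selected cells.

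**Figure D2:**
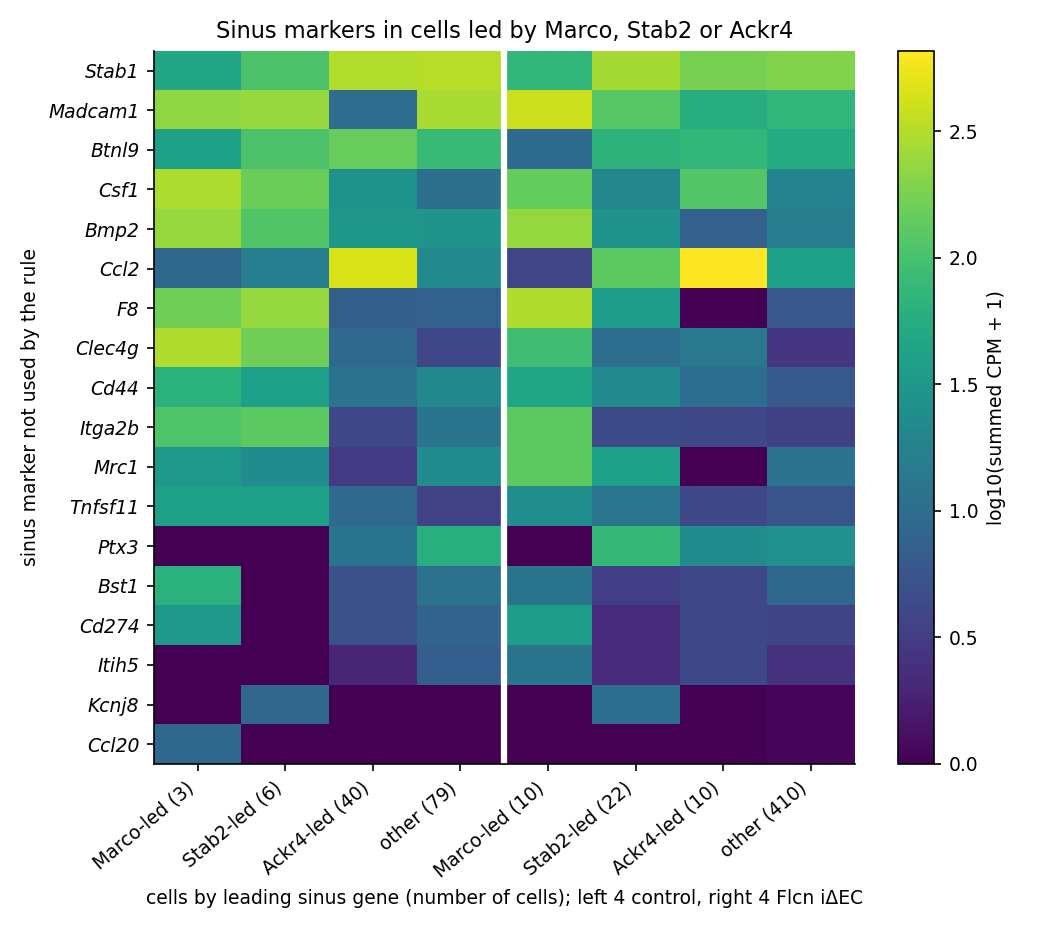
Level of the 18 sinus markers that the rule did not use, as log10 of summed CPM plus 1 (colour), in selected control cells (4 left columns) and Flcn iΔEC cells (4 right columns) led by Marco, Stab2 or Ackr4 and in the other lymphatic cells. Madcam1 stood at 224 and 392 CPM in the cells led by Marco and at 9.11 and 56.3 CPM in those led by Ackr4, or 3.38 and 37.2 without 1 cell each.

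Lists of markers for positions within the node also differed by leading gene in their summed levels. The 4 ceiling markers outside the rule (Btnl9, Cd36, Foxc2 and Cav1) summed to 1840.4 and 1085 CPM in the cells led by Ackr4 and to 278 and 484 CPM in those led by Marco, where 1 control cell held 86.1% of the sum and left 70.6 CPM when removed. The other lymphatic cells had 1148 and 810.4 CPM. Most of the sums in cells led by Ackr4 was Cav1 (1135 and 697 CPM), and Cd36 in Flcn iΔEC went the other way, with 269 CPM there and 415 CPM in cells led by Marco. The 6 floor markers (Madcam1, Ccl20, Itga2b, Cd44, Bmp2 and Glycam1), none of them in the rule, summed to 1372 and 939 CPM in the cells led by Marco and to 56.7 and 78.2 CPM in those led by Ackr4. In control, Glycam1 made up 732 CPM of the former sum, and 138 CPM without the 1 cell that held most of it, and the sum was 698 CPM without the cell that held most of the list. The other lymphatic cells had 5854 and 624 CPM of the floor list, mostly Glycam1, or 2861 and 260.4 without 1 cell each, so in control the list was higher in them than in the cells led by Marco. The 5 markers of Marco-type medullary cells other than Marco (Clec4g, Mrc1, Bst1, Cd274 and C2) summed to 501 and 424 CPM in the cells led by Marco and to 19.2 and 71.9 CPM in those led by Ackr4. The other lymphatic cells had 44.6 and 87.6 CPM of this list, above the cells led by Ackr4.

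Clusters built without Marco, Ackr4, Stab2 and Ccl2 split the selected cells in a like way. Of 13 clusters of the lymphatic cells, 1 held 15 of 49 selected control cells (30.6% [18.3 to 45.4]) and 23 of 43 selected Flcn iΔEC cells (53.5% [37.7 to 68.8]), among 17 and 38 cells of those libraries. That cluster took all the cells led by Marco (3 and 10), 5 and 9 of those led by Stab2, and 7 and 3 of those led by Ackr4. Another 34 control and 20 Flcn iΔEC cells fell outside it. A UMI of Il22, a cytokine gene of lymphoid cells, was in 6 of 15 and 5 of 23 selected cells of the cluster. Outside the cluster it was in 0 of 34 and 0 of 20. Il7r was in 8 of 15 and 7 of 23, against 2 of 34 and 2 of 20 outside. Whether RNA of other cells shaped the cluster was not tested. In control, 13 and 9 of the Ackr4-led cells shared 2 other clusters with 10 and 14 Lyve1-low cells, and 1 of these 2 clusters held 23 control cells but 1 Flcn iΔEC cell, so it may be that library and not a type. At a resolution of 0.5 in place of 1, the control cluster with most selected cells was another, with 18 of the 49.

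RNA of other cell types was present and differed by class. After thinning to 5000 UMIs, a UMI of Ptprc was found in 10.2% [3.40 to 22.2] of selected control cells and 16.3% [6.81 to 30.7] of Flcn iΔEC cells, compared with 13.0% and 4.94% of the other lymphatic cells and 42.1% and 35.3% of blood endothelial cells. Unthinned it was found in 14 of 49 (28.6% [16.6 to 43.3]) and 14 of 43 (32.6% [19.1 to 48.5]) selected cells, and in 9 of 15 (60.0% [32.3 to 83.7]) and 9 of 23 (39.1% [19.7 to 61.5]) of those in the cluster with most of them. The 18 macrophage and dendritic markers, a list that includes Ptprc of all leukocytes (74 of 288 and 58 of 234 UMIs), summed to 230.4 and 151 CPM, below the 422 and 329 CPM of blood endothelial cells. In the cells led by Marco, however, the sum was 702 and 495 CPM, or 439 CPM in control without 1 cell, with Fcer1g at 316 and 249 CPM and Tyrobp at 247 and 135 CPM, or 50.1 for Tyrobp in control without 1 cell. These 2 genes, which innate lymphoid cells can also make, with Ptprc and Cd68 made up all of the control sum, and in Flcn iΔEC Adgre1 and Cd14 added 2 and 1 UMIs, so the other 14 and 12 genes, Csf1r and Lyz2 among them, were at 0 in the cells led by Marco. Over all selected cells, the most abundant of the 18 was Fcer1g (125 and 104 UMIs), and C1qa, C1qb, C1qc, Fcgr1, Cd163, Siglec1, Itgax and Flt3 were at 0 in both libraries, with 9 and 10 of the 18 at 0 in each. A count of 0 over all selected cells is bounded above by 2.95 CPM for control, or 2.39 CPM for Flcn iΔEC. Csf1r had 1 UMI in each library and Lyz2 1 and 0. Macrophages can also make Marco, and whether any of its RNA here came from them was not tested.

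Lymphocyte RNA was more abundant. The 7 T cell markers gave 369 and 308 UMIs, led by Il7r with 224 and 177. The 5 B cell markers gave 113 and 63 UMIs, led by Cd79a in control (44) and Cd79b in Flcn iΔEC (29). Il7r was at 709 and 472 CPM in the cells led by Marco and at 181 and 169.9 CPM in blood endothelial cells. Cd3d, Cd3e and Cd3g were at 0, 0 and 38.5 CPM in the control cells led by Marco. In those of Flcn iΔEC they were at 14.3, 11.4 and 31.5 CPM. Most of the sum of the T cell list was thus Il7r, and which lymphoid cells it came from was not tested. The platelet list of 5 genes gave 210 and 89 UMIs, mostly Pf4 in control (174 UMIs, 71.3% of them in 1 cell, without which it was at 40.7 CPM in place of 139) and Itga2b in Flcn iΔEC (48 UMIs), while Ppbp and Gp9 were at 0 in both. The 5 erythroid genes gave 29 and 79 UMIs, led by Hbb-bs (18 and 58). The 8 fibroblast and reticular genes gave 60 and 30 UMIs, led by Col3a1 in control (48) and Dcn in Flcn iΔEC (24), the 4 neutrophil genes 1 and 5 UMIs and the 3 mesothelial genes 1 and 1 UMIs. Scrublet called 142 control (2.08%) and 37 Flcn iΔEC cells (0.830%) doublets, of which 1 was a selected control cell. Called doublets were kept. Over the few genes with enough counts, the medians between the libraries were -0.65 for macrophage and dendritic (3 genes, the median being the value of Ptprc), -0.59 for T cell (4), -0.90 for B cell (2), -1.15 for platelet (2), 1.33 for erythroid (1) and -3.60 for fibroblast and reticular genes (1). The platelet value is the mean of Pf4 (-2.47, or -0.72 without 1 control cell) and Itga2b (0.18). Without 1 control cell Tyrobp was at -0.10 in place of -0.74, Cd79a at -0.43 in place of -1.27 and Col3a1 at -2.71, and without 1 Flcn iΔEC cell Fcer1g was at -1.20 in place of -0.57, Il7r at -1.25 in place of -0.64 and Cd79a at -2.57. The part of RNA from attached or free cells in the values given here was not tested.

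Ccl2, the chemokine that draws monocytes and the marker the rule left out, was concentrated in very few selected cells. It had 449 UMIs in control (359 CPM [327 to 394]) and 329 in Flcn iΔEC (213 CPM [190.4 to 237]), but 428 of the control UMIs (95.3%) came from 1 cell and 208 of the Flcn iΔEC UMIs (63.2%) from another. Without that cell in each library the level was 18.3 and 81.6 CPM, compared with 20.3 and 40.0 CPM in the other lymphatic cells. The other lymphatic cells of Flcn iΔEC also had 1 such cell, with 46.5% of their Ccl2 UMIs, and without it they stood at 21.4 CPM. In control, the level without the top cell was close to that of the other lymphatic cells, and in Flcn iΔEC it was higher. Lyve1-high cells had 56.9 and 11.9 CPM, Lyve1-low cells 2.60 and 75.9 CPM, and blood endothelial cells 0.665 and 0.300 CPM. A UMI of Ccl2 was found in 11 of 49 and 12 of 43 selected cells, or 10.2% [3.40 to 22.2] and 14.0% [5.30 to 27.9] after thinning to 5000 UMIs, against 0.662% [0.0803 to 2.37] and 0.483% [0.0122 to 2.66] of blood endothelial cells, 6.49% [2.14 to 14.5] and 3.70% [2.09 to 6.04] of the other lymphatic cells and 18.5% [6.30 to 38.1] and 5.83% [2.38 to 11.6] of the Lyve1-high cells among them. Few of the selected cells therefore carried Ccl2 at this depth, and in control the share was larger in Lyve1-high cells. With at least 4 sinus UMIs required in place of 2, the log2 ratio of Ccl2 to the other lymphatic cells in Flcn iΔEC was -0.65 in place of 2.41.

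The control cell with 428 Ccl2 UMIs was led by Ackr4 (34 UMIs) and had 100761 UMIs in all. It also held 65 of the 83 control UMIs of Ccl7, a related monocyte chemokine, 182 of the 271 UMIs of the adhesion gene Vcam1 and 15 UMIs of Ptprc. It was the selected cell that Scrublet called a doublet. In Flcn iΔEC the cell with 208 Ccl2 UMIs, also led by Ackr4 (2 UMIs), had 63171 UMIs, 91 of the 101 Ccl7 UMIs and no Ptprc. The next cells had 7 Ccl2 UMIs in control, and 75 and 16 in Flcn iΔEC, both of the latter led by Stab2. Ccl2 and Ccl7 lie 8258 bases apart on the plus strand of chromosome 11 (GRCm38), at chr11:82035571-82037453 and chr11:82045712-82047525. So in both libraries the cell with most Ccl2 was also the cell with most Ccl7.

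**Figure D3:**
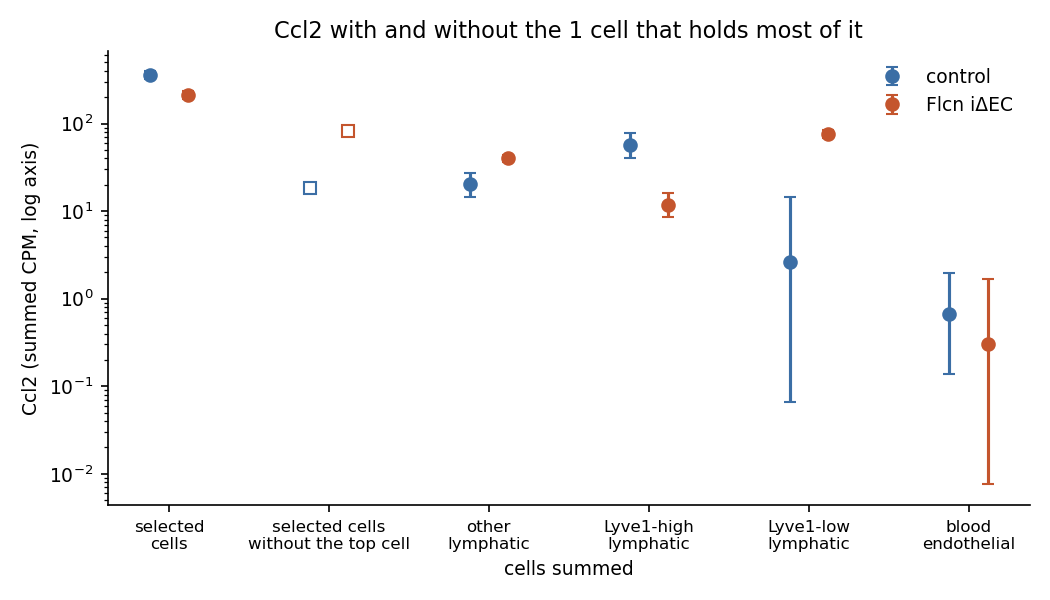
Ccl2 in CPM with 95% Poisson intervals, on a log axis, for each class of cells in each library, with open squares for the selected cells without the cell that had most Ccl2. Removing that cell took the selected cells from 359 to 18.3 CPM in control and from 213 to 81.6 CPM in Flcn iΔEC.

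Compared with the other lymphatic cells of the same library, the selected cells had more RNA of Clec4g, F8 and Adam33 and less of Glycam1, Aqp1 and Nkx2-3 in both libraries. Log2 ratios are given for control and then Flcn iΔEC, with 1 count added before scaling and at least 50 counts over both classes. The rule used this contrast, so these counts describe the cells and support nothing. Of 7606 genes, 10 were at least 4-fold higher in both libraries (0.131%) and 11 at least 4-fold lower (0.145%), and 45 (0.592%) and 68 (0.894%) passed 2-fold. Of the 10, 3 were the sinus genes of the rule. The other 7 were Clec4g (3.99 and 3.93), F8 (2.77 and 4.22), the metalloprotease gene Adam33 (2.59 and 3.52), Bcar3 (2.06 and 2.10), Ccl2 (4.11 and 2.41), Ccl7 (3.76 and 3.93) and Pf4 (3.75 and 2.97). Ccl7 came from 1 cell for 78.3% and 90.1% of its UMIs, whereas Bcar3 had at most 17.9% in 1 cell. Leaving out the selected cell with most UMIs of the gene moved some ratios by over 1.5-fold, to values in control of 1.90 for F8, -0.12 for Ccl2, 1.74 for Ccl7 and 1.997 for Pf4, and in Flcn iΔEC of 1.04 for Ccl2 and 0.78 for Ccl7. Leaving out the comparison cell with most gave values moved as much in control of 4.78 for Clec4g and 4.37 for Pf4, and in Flcn iΔEC of 3.31 for Ccl2 and 4.69 for Ccl7. No single cell moved Adam33 or Bcar3 by that much, but Bcar3 was at 1.85 without 1 selected Flcn iΔEC cell, which is under 4-fold. Adam33 and Bcar3 were singled out after their values were seen. With at least 3 or 4 sinus UMIs required in place of 2, 53 and 62 genes were 4-fold lower in both libraries, and against Lyve1-high cells alone 0. In each library alone, 18 of 7621 genes were 4-fold higher and 48 lower in control, and 79 of 10563 higher and 54 lower in Flcn iΔEC.

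Among the 11 lower genes were Glycam1 (-5.58 and -3.93), a mucin of high endothelial venules, and Fut7 (-4.83 and -3.20), which builds the sugar that L-selectin binds. The water channel gene Aqp1 (-2.49 and -2.50), the homeobox gene Nkx2-3 (-3.41 and -2.38), Ly6a (-3.13 and -3.26) and the collagen gene Col15a1 (-3.67 and -4.20) were lower too. So were Adamts18 (-2.89 and -3.53), Adgrg6 (-3.69 and -2.12), Vwa1 (-2.71 and -2.46), Rnf165 (-3.06 and -2.93) and Serpina1e (-4.61 and -5.18). In the other control cells all 78 UMIs of Serpina1e were in 1 cell. Leaving out the selected cell with most UMIs of the gene moved some ratios by over 1.5-fold, to values in control of -6.73 for Glycam1, -5.79 for Fut7, -3.07 for Aqp1, -3.91 for Ly6a, -6.66 for Col15a1, -4.83 for Adamts18, -6.43 for Adgrg6, -4.00 for Rnf165 and -5.49 for Serpina1e, and in Flcn iΔEC of -5.25 for Glycam1, -4.17 for Fut7, -3.79 for Aqp1, -4.04 for Nkx2-3, -4.33 for Ly6a and -4.07 for Adgrg6. Leaving out the comparison cell with most gave values moved as much in control of -4.48 for Glycam1, -4.16 for Fut7 and 1.62 for Serpina1e, and in Flcn iΔEC of -2.36 for Glycam1 and -4.45 for Serpina1e. So 1 cell changed the sign for Serpina1e in control and for none of the other 10, of which Vwa1 moved by less than 1.5-fold. Adgrg6 in Flcn iΔEC was at -1.99 without 1 comparison cell, which is under 4-fold. All 11 genes were named after their values were seen. Against Lyve1-high or Lyve1-low cells alone, 0 of 5636 and 1 of 5203 genes were 4-fold lower in both libraries. How many passed thus depended on the comparison cells. The list of 5 high endothelial venule genes summed to 172 and 209 CPM in the selected cells, most of it Madcam1 in Flcn iΔEC (174 CPM) and Glycam1 in control (114 CPM). In the other lymphatic cells it summed to 5842 and 618 CPM, of which Glycam1 made 5510.3 and 532. Without the 1 cell that held most of the list, the sums were 2849 and 252 CPM there and 104 CPM in the selected control cells.

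Among genes with at least 100 CPM in the higher class in both libraries, ranked by the smaller of both ratios, Ccl2 came first, followed by the cytokine gene Il22 (2.09 and 1.65), which lymphoid cells make, and Serpina3g (1.21 and 2.58), a protease inhibitor. Endothelial and general genes came next, with the lectin gene Clec1a (1.07 and 1.55), the complement regulator Cd55 (1.05 and 1.64), the junction gene Jam3 (1.01 and 2.64), the nuclear receptor Rora (0.92 and 1.17) and Bok of the Bcl2 family (0.91 and 2.41). Igf1, a growth factor (0.85 and 2.99), and Jam3 had much larger ratios in Flcn iΔEC than in control. In the selected cells themselves, Igf1 was lower in Flcn iΔEC (260 and 135 CPM, ratio 0.517), and Jam3 was at 134 and 169 CPM. The larger ratio of Igf1 was thus no higher level in the selected Flcn iΔEC cells. The last of the 15 were the guidance gene Sema3d (1.28 and 0.90), the lipase inhibitor Angptl4 (1.33 and 0.80), Dbi (0.78 and 0.81), Fdps of sterol synthesis (0.76 and 1.02), the thrombin receptor F2r (0.95 and 0.74) and Il7r (0.71 and 1.33). Leaving out 1 cell moved 3 of the 15 by over 1.5-fold. Leaving out the selected cell with most UMIs of the gene moved some ratios by over 1.5-fold, to values in control of -0.12 for Ccl2 and 1.48 for Il22, and in Flcn iΔEC of 1.04 for Ccl2, 0.87 for Il22 and 0.73 for Il7r. Leaving out the comparison cell with most gave values moved as much in control of 3.53 for Il22, and in Flcn iΔEC of 3.31 for Ccl2. Without all cells that had a Ptprc UMI, the smaller of both log2 ratios was 2.52 for Serpina3g, 0.95 for Clec1a, 0.81 for Jam3, 0.78 for Bok and 0.53 for Cd55, whereas Il22, Rora and Il7r had no ratio above 0 in both libraries.

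The 15 genes at the other end included genes of blood vessels and of the matrix. After Glycam1 and Aqp1 came the noncoding RNA Meg3 (-5.01 and -1.87), the VEGF receptor Flt1 (-1.86 and -2.59), Cd200 (-1.50 and -1.57), Ctla2a (-1.41 and -1.39) and Vwf (-1.37 and -1.52), the clotting protein stored by endothelium. Matrix genes among them were Mgp (-1.21 and -1.55), the protease Htra1 (-1.55 and -1.19) and fibulin gene Fbln2 (-1.14 and -1.28). The list closed with Clec14a (-1.25 and -1.20), Fam101b (-1.47 and -1.11), Ehd4 (-1.97 and -1.10), Id1 (-1.05 and -1.53) and the adhesion gene Esam (-1.09 and -1.01). In 10 of the 15, 1 cell moved a ratio by over 1.5-fold. Leaving out the selected cell with most UMIs of the gene moved some ratios by over 1.5-fold, to values in control of -6.73 for Glycam1, -3.07 for Aqp1, -6.21 for Meg3, -2.59 for Flt1, -2.79 for Vwf, -2.03 for Mgp, -2.97 for Htra1 and -2.64 for Ehd4, and in Flcn iΔEC of -5.25 for Glycam1, -3.79 for Aqp1, -3.74 for Meg3, -3.39 for Flt1, -2.21 for Ctla2a, -2.76 for Vwf, -3.57 for Mgp, -2.04 for Clec14a, -3.92 for Htra1 and -1.75 for Ehd4. Leaving out the comparison cell with most gave values moved as much in control of -4.48 for Glycam1, and in Flcn iΔEC of -2.36 for Glycam1. For Vwf, 1 selected cell gave 64.5% of the control UMIs. All of these ratios without 1 cell were below 0, so the direction did not rest on that cell.

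**Figure D4:**
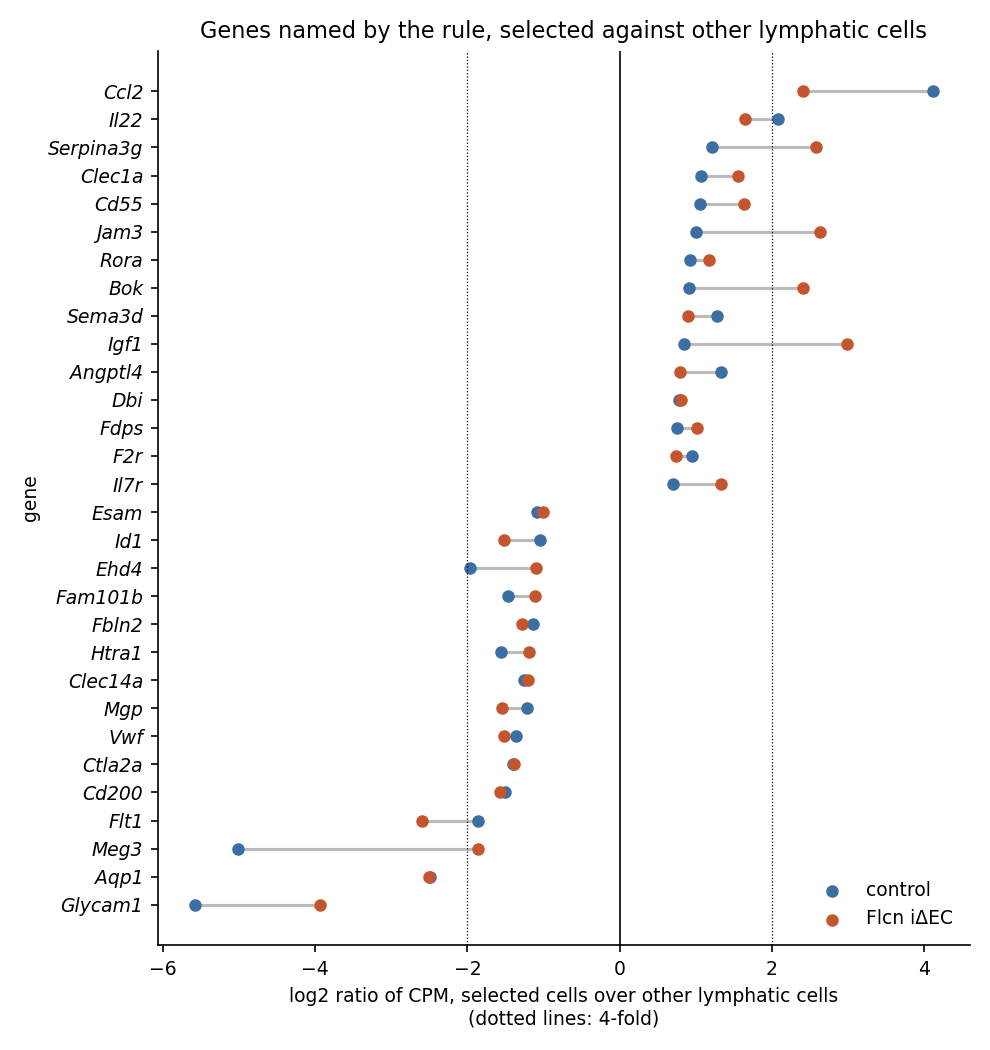
Log2 ratio of selected to other lymphatic cells for the 30 genes chosen by size, with 1 point per library and dotted lines at 4-fold. Clec1a, Cd55 and Jam3 lie right of 0 in both libraries (1.07 and 1.55, 1.05 and 1.64, 1.01 and 2.64), and Glycam1 lies at the far left (-5.58 and -3.93).

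Between the libraries, the selected Flcn iΔEC cells had far more Gdf15, Lrrn4cl, Mt1 and Uap1l1 than the selected control cells, and less Gja4, Stmn2 and Flrt2. Of 6842 genes with at least 50 counts over both libraries, 33 were at least 4-fold higher (0.482%) and 36 at least 4-fold lower (0.526%), with 160 (2.34%) and 250 (3.65%) past 2-fold, and the median log2 ratio was -0.12. The gene with most UMIs of the sinus genes differed between the libraries, and cell selection and genotype cannot be told apart in any of these ratios. Ratios in Lyve1-high, Lyve1-low and blood endothelial cells are therefore given beside them, in this order, from the same libraries. These classes were mixed differently in the libraries as well. In the clusters above, 24 of 27 control but 50 of 196 Flcn iΔEC Lyve1-low cells lay in the 2 clusters shared with Ackr4-led cells, and 13 of 28 and 21 of 121 Lyve1-high cells in 1 other cluster, so these ratios can also reflect the mix.

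Gdf15, a stress-induced cytokine, went from 31.2 CPM [22.2 to 42.7] to 573 CPM [536 to 612] (ratio 18.4 [13.3 to 26.0]). On the log2 scale this was 4.16, beside 5.72, 6.61 and 5.03 in the other classes, so it was high in each Flcn iΔEC class examined. Lrrn4cl went from 12 to 338 UMIs (22.8 [12.9 to 44.5]), with a log2 ratio of 4.40 and 6.59, 4.72 and 3.44 in the others. Metallothionein Mt1 (3.85, with 2.75, 4.29 and 3.27), Uap1l1 (3.17, with 3.02, 3.17 and 2.36) and the secreted olfactomedin gene Olfm1 (2.50, with 2.95, 2.96 and 1.29) were also higher in all 4 classes, by under 4-fold for Olfm1 in blood endothelial cells. So was Plat, the plasminogen activator (2.67, with 4.57, 2.78 and 1.44), again under 4-fold in blood endothelial cells, and the predicted gene Gm8797 (3.22, with 2.79, 2.81 and 3.18), whose assignment is uncertain. The 7 genes were thus higher in each of the 4 classes. They were also past 4-fold over the cells led by Ackr4 alone, but Olfm1 only with 1 Flcn iΔEC cell (2.31, or 1.40 without it).

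Ccl21a, the ligand that guides cells with Ccr7, differed by class. It went from 140.0 CPM [120.0 to 162] to 2867 CPM [2783 to 2952] in the selected cells, a log2 ratio of 4.35, whereas the other classes gave -0.10, 2.68 and 0.16. Cells led by Ackr4 had 171 and 2201 CPM in control and Flcn iΔEC, and cells led by Stab2 45.3 and 4355 CPM, so it was higher in Flcn iΔEC with either leading gene. Without the 1 cell that held most of it, the first 3 of these levels were 102, 456 and 8.35 CPM. Over the cells led by Ackr4 alone, the log2 ratio of Ccl21a was 3.68, or 1.42 without 1 Flcn iΔEC cell, which is under 4-fold. Ccl21a has near-identical copies, which makes its counts uncertain. The near-identical heat shock genes Hspa1a (3.83, with 0.87, 5.17 and 3.22) and Hspa1b (2.79, with 0.73, 3.39 and 2.96) were past 4-fold as well, but not in Lyve1-high cells. In Ccl21a, Hspa1a, Hspa1b and Gdf15, 1 control cell moved the ratio by over 1.5-fold, and without it the log2 ratios were 5.06, 4.63, 4.05 and 5.19. All 4 were thus still past 4-fold. Hspa1b was at 0.27 over the cells led by Ackr4, or 1.83 without 1 control cell, and so passed 4-fold only with the other cells.

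On the lower side, Ackr4 itself (-3.77) is a gene of the rule. Gja4 went from 472 CPM [435 to 512] to 53.0 CPM [42.2 to 65.8], a log2 ratio of -3.14, with -2.99, -3.14 and 0.10 in the other classes, so it was low in both lymphatic classes and near 0 on the log2 scale in blood endothelium. Stmn2, which binds tubulin (-2.97, with -2.17, -1.84 and -0.73), and the adhesion gene Flrt2 (-2.65, with -2.63, -2.79 and -2.38) were lower in each class. Tmem158 (-3.07, with -0.13, -2.38 and -0.52), Mfap2 of elastic microfibrils (-2.52, with -0.89, -2.09 and -1.10) and Sncaip (-2.26, with -0.93, -3.38 and 0.25) shared a low ratio with the Lyve1-low cells. Foxc2 (-2.18, with -1.06, -2.25 and -0.18) did likewise. Most of these genes were under 4-fold over the cells led by Ackr4 alone, with Gja4 at -1.82, Tmem158 at -1.79, Stmn2 at -1.22, Mfap2 at -1.74 and Foxc2 at -1.66, while Flrt2 was at -2.21 and Sncaip at -2.48. Without 1 of the 10 Flcn iΔEC cells led by Ackr4, Gja4 was at -3.25, Tmem158 at -3.77, Stmn2 at -4.47, Mfap2 at -2.12 and Sncaip at -3.59. The peptidase gene Anpep (-2.15, with -0.53, -1.81 and 3.03) was lower in the selected cells (-1.11 over those led by Ackr4) and higher in blood endothelium. Pf4 (-2.47) rested on 1 control cell, without which its log2 ratio was -0.72, and it was 2.30 over the cells led by Ackr4 alone, or 4.47 without 1 control and 0.45 without 1 Flcn iΔEC cell. Without 1 Flcn iΔEC cell the log2 ratios of Gja4, Tmem158 and Stmn2 were -3.92, -3.98 and -5.05.

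**Figure D5:**
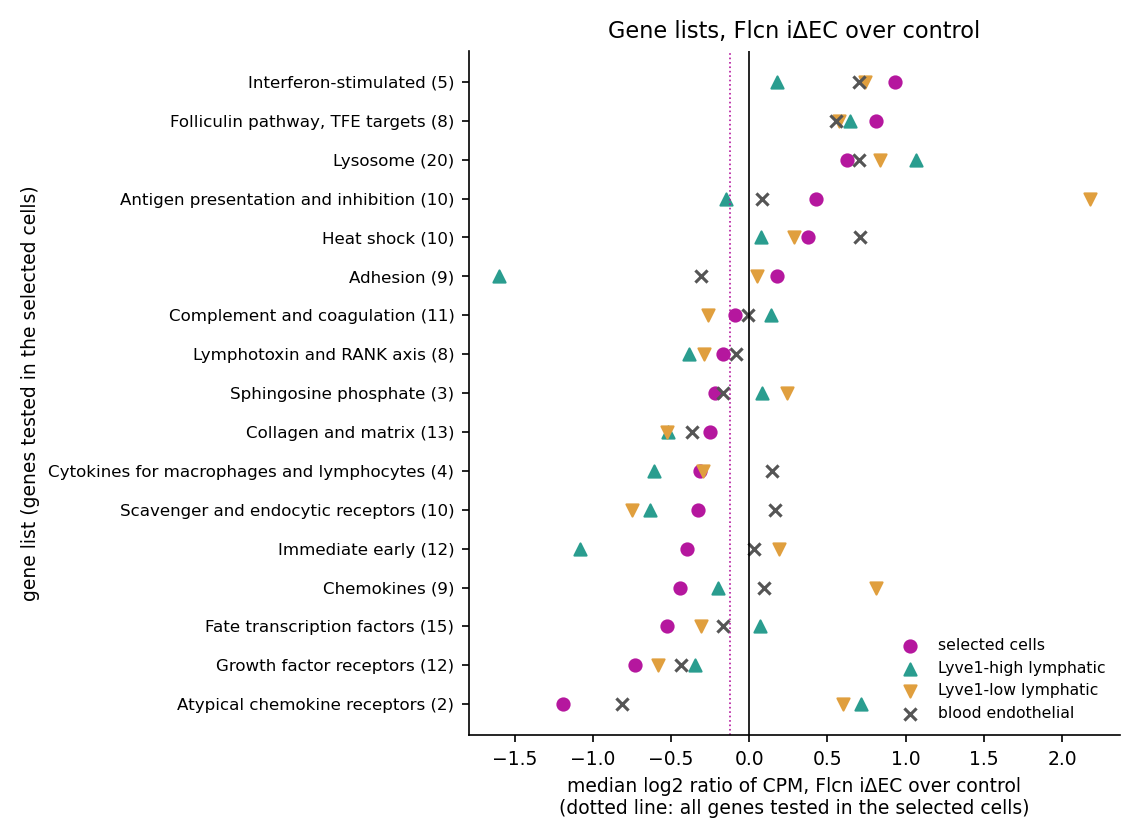
Median log2 ratio of Flcn iΔEC to control over the genes of 17 lists, for selected, Lyve1-high, Lyve1-low and blood endothelial cells, with a dotted line for all genes in the selected cells. The folliculin list (0.81) and the lysosome list (0.62) lie above the -0.12 of all genes in the selected cells, and growth factor receptors (-0.73) below it.

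The lists hold genes grouped by role. Over the 7595 genes outside the rule with enough counts in both libraries (at least 50 over both classes), the median ratio to the other lymphatic cells was 0.02 in control and 0.01 in Flcn iΔEC. Between the libraries it was -0.12 in selected cells and -0.15, -0.24 and -0.07 in Lyve1-high, Lyve1-low and blood endothelial cells. Of the 7595, 28.9% were higher in both libraries, 25.4% lower in both and 45.8% opposite, which is the measure for the counts by direction in each list. Of the 21 sinus markers, 3 of them in the rule, 12 of the other 18 had enough counts in both libraries. Of these 12, 3 were at least 4-fold higher in both (0.131% of all genes), 6 at least 2-fold (0.592%), but 1 and 3 when the selected cell with most UMIs of each gene was left out of each library. With all cells, 7 were higher at any size, 0 lower and 5 opposite in direction between the libraries, with medians of 0.93 in control and 2.23 in Flcn iΔEC. Their Flcn iΔEC to control median was 0.20, with 2 of 12 at least 4-fold higher (0.482% of all genes) and 0 lower (0.526%).

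Scavenger receptors clear particles and modified proteins from lymph. Of 14, 10 had enough counts, of which 5 were higher in both libraries, 1 lower in both and 4 opposite, with medians of 0.27 in control and 0.68 in Flcn iΔEC. Stab1, a relative of Stab2, was at 261 CPM [233 to 291] and 207 CPM [185 to 231], and the fatty acid receptor Cd36 at 358 CPM [325 to 392] and 285 CPM [259 to 313]. Between the libraries 1 of 10 rose at least 4-fold (0.482% of all genes), Mrc1, from 7.20 CPM [3.29 to 13.7] to 51.1 CPM [40.5 to 63.7], a ratio of 7.10 [3.56 to 16.1]. The median was -0.33, beside -0.63, -0.75 and 0.17 in the other classes, and none of the other 9 passed 2-fold either way.

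Chemokines were led in Flcn iΔEC by Ccl21a. Of 14, 9 had enough counts, and 7 were higher in both libraries, 2 lower in both and 0 opposite, with medians of 0.62 in control and 1.44 in Flcn iΔEC. These directions rest partly on single cells. Without the selected cell with most of it in each library, Ccl2 went opposite ways (-0.12 in control and 1.04 in Flcn iΔEC). Ccl7 was then at 1.74 and 0.78. Between the libraries 1 of 9 was at least 4-fold higher (0.482% of all genes) and 2 lower (0.526%), with a median of -0.44 beside -0.20, 0.81 and 0.10. The lower ones were Cxcl12, which retains cells with Cxcr4 (ratio 0.0153 [0.000379 to 0.0888]), and the T cell chemokine Ccl5 (0.164 [0.0830 to 0.301]). Without the selected cell that held most UMIs of the gene, the ratio was 0.265 for Cxcl12 and 0.531 for Ccl5 where that cell was a control cell, and 0 for Cxcl12 and 0.0908 for Ccl5 where it was a Flcn iΔEC cell. Of the 4 atypical receptors outside the rule, Ackr3, which takes up Cxcl12, was at 246 CPM [219 to 275] and 81.5 CPM [67.9 to 97.0] (ratio 0.332 [0.268 to 0.410]). The 2 with enough counts had medians of 0.15 in control and 0.06 in Flcn iΔEC against the other lymphatic cells and -1.19 between the libraries, beside 0.71, 0.60 and -0.81, with 0 past 4-fold and 1 of 2 past 2-fold lower (3.65% of all genes).

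The 12 adhesion genes include Madcam1 and Vcam1. Madcam1 had levels of 56.0 CPM [43.7 to 70.8] and 174 CPM [154 to 196] (ratio 3.11 [2.38 to 4.10]), while Vcam1, which binds lymphocyte integrins, fell from 217 CPM [192 to 244] to 53.0 CPM [42.2 to 65.8] (ratio 0.245 [0.189 to 0.314]), with 67.2% of its control UMIs in 1 cell. Without that cell Vcam1 was at 77.4 CPM in control and its ratio was 0.685, under 4-fold and close to the 0.667 of Icam2, another integrin ligand. Of the list, 11 had enough counts against the other lymphatic cells, where 3 were higher in both libraries, 4 lower in both and 4 opposite, with medians of -0.77 in control and 0.12 in Flcn iΔEC. Between the libraries, 0 of 9 were at least 4-fold higher, 1 lower (0.526% of all genes), and 1 and 2 passed 2-fold (2.34% and 3.65%), with a median of 0.18 beside -1.60, 0.05 and -0.31. The lower ones were Vcam1 and Glycam1. Glycam1 had a ratio of 0.300, or 0.669 without 1 control cell and 0.116 without 1 Flcn iΔEC cell. Without that control cell it was thus under 2-fold, as was Vcam1 without its own.

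Cytokine genes included Csf1 and Il33, an alarmin of the nucleus. Csf1 stood at 68.0 CPM [54.3 to 84.1] and 67.9 CPM [55.5 to 82.2], with ratios to the other lymphatic cells of 2.73 and 1.99 on the log2 scale, and Il33 at 68.8 CPM [55.0 to 85.0] and 44.0 CPM [34.2 to 55.8], with 1.25 and 2.45. Of 8 genes, 4 had enough counts, of which 3 were higher in both libraries, 0 lower in both and 1 opposite, with medians of 0.67 in control and 1.06 in Flcn iΔEC, and the median between the libraries was -0.32 beside -0.61, -0.29 and 0.14, with 0 past 2-fold. The lymphotoxin and RANK axis, through which lymphoid cells organise nodes, had 8 of 13 genes with enough counts. Of these 5 were higher in both libraries, 2 lower in both and 1 opposite, with medians of 0.23 in control and 0.41 in Flcn iΔEC and -0.17 between the libraries, beside -0.39, -0.29 and -0.08, with 0 past 2-fold. Its most abundant gene was Ltb, a lymphotoxin chain made by lymphocytes (410.4 CPM [376 to 447] and 320.2 CPM [293 to 349.7]), which blood endothelial cells also showed at 391 and 306 CPM. In the cells led by Marco, Ltb was at 1334 and 773 CPM, or 1256 and 657 without 1 cell each. Its receptor Ltbr stood at 40.0 CPM [29.7 to 52.7] and 45.9 CPM [35.9 to 57.9]. The 7 genes of sphingosine phosphate, a lipid that guides lymphocytes out of nodes, had 3 with enough counts, of which 0 were higher in both libraries, 1 lower in both and 2 opposite, with medians of 0.23 in control and -0.40 in Flcn iΔEC and -0.22 between the libraries, beside 0.08, 0.24 and -0.17, with 0 past 2-fold.

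Antigen presentation genes were abundant. B2m, the light chain of class I molecules, was at 859 CPM [809 to 912] and 2074 CPM [2003 to 2147] (ratio 2.41 [2.25 to 2.59]), H2-K1 had a ratio of 2.16 [2.01 to 2.34] and H2-D1 of 1.96 [1.83 to 2.10]. Cd74, the invariant chain of class II, was at 589.6 CPM [548 to 634] and 448 CPM [415 to 482], or 400.3 CPM in control without the cell that held most of it. Of 13 genes, 10 had enough counts, of which 4 were higher in both libraries, 1 lower in both and 5 opposite against the other lymphatic cells, with medians of -0.17 in control and 0.65 in Flcn iΔEC. Between the libraries 2 of 10 passed 2-fold higher (2.34% of all genes) and 0 lower (3.65%), with a median of 0.42 beside -0.15, 2.18 and 0.08. The interferon-stimulated list, with 5 of 11 genes measured, had a median of 0.93 beside 0.17, 0.74 and 0.70. Ifi27l2a (2.89 [2.32 to 3.64]) and Bst2 (2.66 [2.39 to 2.97]) passed 2-fold, which 2.34% of all genes did. Against the other lymphatic cells 3 were higher in both libraries, 1 lower in both and 1 opposite, with medians of 0.09 in control and 0.34 in Flcn iΔEC.

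Complement and coagulation genes differed in both directions. C2, a complement protease, rose from 8.80 CPM [4.39 to 15.7] to 84.7 CPM [70.8 to 101] (ratio 9.63 [5.21 to 19.8]), and Plat from 114 CPM [96.4 to 135] to 732 CPM [690.2 to 776] (ratio 6.40 [5.37 to 7.67]). In contrast, Vwf had a ratio of 0.290 [0.242 to 0.347], the protein C receptor Procr of 0.303 [0.255 to 0.360] and thrombomodulin, encoded by Thbd, of 0.411 [0.294 to 0.571]. Without the selected cell that held most UMIs of the gene, the ratio was 14.5 for C2 and 0.781 for Vwf where that cell was a control cell, and 0.122 for Vwf where it was a Flcn iΔEC cell. Thus 2 of 11 were at least 4-fold higher (0.482% of all genes), 0 lower (0.526%), and 5 passed 2-fold lower (3.65%), with a median of -0.09 beside 0.14, -0.27 and -0.01. Against the other lymphatic cells 10 of 14 had enough counts, of which 3 were higher in both libraries, 2 lower in both and 5 opposite, with medians of 0.48 in control and -0.19 in Flcn iΔEC.

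Transcription factors of endothelial fate had 1 gene past 4-fold, Foxc2. Prox1, a gene of the rule, stood at 409.6 CPM [375 to 447] and 302 CPM [275 to 331], and Nr2f2, a venous and lymphatic factor, at 294 CPM [264 to 325] and 283 CPM [257 to 310.5]. Foxc2 fell (ratio 0.217 [0.152 to 0.304]), Sox7 had a ratio of 0.301 [0.189 to 0.466] and Sox18, a factor of lymphatic specification, of 0.501 [0.428 to 0.586], while Maf was at 1.39 [1.18 to 1.63]. Of 15 with enough counts, 0 were at least 4-fold higher and 1 lower (0.526% of all genes), with a median of -0.53 beside 0.07, -0.31 and -0.17. When compared with the other lymphatic cells, 3 were higher in both libraries, 7 lower in both and 5 opposite, with medians of 0.01 in control and -0.28 in Flcn iΔEC. Growth factor receptors showed a lower median of -0.73 beside -0.35, -0.58 and -0.44, with 0 of 12 past 4-fold and 3 past 2-fold lower (3.65% of all genes). These were Met, the receptor of hepatocyte growth factor (0.265 [0.182 to 0.380]), the coreceptor Nrp1 (0.387 [0.264 to 0.560]) and Flt1 (0.435 [0.280 to 0.667]). Without the selected cell that held most UMIs of the gene, the ratio was 0.733 for Flt1 and 0.566 for Nrp1 where that cell was a control cell. Both genes were thus under 2-fold without it. Where that cell was a Flcn iΔEC cell, the ratio was 0.255 for Nrp1 and 0.245 for Flt1. Of the 12, 1 was higher in both libraries, 9 lower in both and 2 opposite when set beside the other lymphatic cells (28.9%, 25.4% and 45.8% of all genes), with medians of -0.54 in control and -0.54 in Flcn iΔEC.

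By list median, genes of the folliculin pathway were higher in the selected Flcn iΔEC cells. Ppargc1a, a coactivator of mitochondrial genes, had the largest ratio among those with enough counts (4.12 [2.13 to 8.71]), followed by the GTPase gene Rragc (2.58 [1.91 to 3.51]), Fnip1 (2.38 [1.39 to 4.25]) and the autophagy receptor Sqstm1 (2.31 [1.89 to 2.85]). Gpnmb, a known TFE target, had 1 and 35 UMIs (28.3 [4.76 to 1149]), and Rragd 5 and 34 (5.50 [2.14 to 18.0]), both under the minimum of 50 counts. Without the selected cell that held most UMIs of the gene, the ratio was 22.3 for Ppargc1a and 27.1 for Rragd where that cell was a control cell, and 2.45 for Ppargc1a where it was a Flcn iΔEC cell. The single control UMI of Gpnmb was in 1 cell. Tfeb had a ratio of 0.50 [0.340 to 0.729] and Tfe3 of 0.830 [0.514 to 1.34]. In total, 4 of 8 measured genes of 13 passed 2-fold higher and 0 lower, against 2.34% and 3.65% of all genes, and 0 were past 4-fold with 1 count added. The median was 0.81 beside 0.65, 0.57 and 0.55, so it was also above that of all genes in each other class. Against the other lymphatic cells, 7 had enough counts, of which 2 were higher in both libraries, 3 lower in both and 2 opposite, with medians of -0.10 in control and -0.02 in Flcn iΔEC.

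Lysosomal genes were higher too by list median, with summed levels of 4329 and 8716 CPM over 20 genes. The protease gene Ctsd was at 346 CPM [315 to 381] and 1319.5 CPM [1263 to 1378] (ratio 3.81 [3.43 to 4.24]) and the membrane protein gene Cd63 at 580.0 CPM [539 to 624] and 2158 CPM [2085 to 2232] (ratio 3.72 [3.43 to 4.04]). The protease Lgmn had a ratio of 3.14 [2.53 to 3.91] and the hexosaminidase chain Hexa of 2.70 [2.17 to 3.36], whereas the lipase gene Lipa was at 0.782 [0.535 to 1.14]. Of the 20, 6 passed 2-fold higher and 0 lower, and 0 passed 4-fold, against 2.34% and 3.65% of all genes at 2-fold. The median was 0.62, beside 1.07, 0.84 and 0.70, so each other class had a median above that of all genes too, with the largest in Lyve1-high cells. Set beside the other lymphatic cells of each library, 2 were higher in both libraries, 7 lower in both and 11 opposite, with medians of 0.03 in control and -0.30 in Flcn iΔEC.

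Promoters of the 3 genes with the largest ratios among those of the folliculin and lysosome lists with at least 50 counts, Ppargc1a (chr5:51567676-51567975, minus strand), Ctsd (chr7:142387778-142388077, minus strand) and Cd63 (chr10:128909095-128909394, plus strand), are shown because TFE factors bind CACGTG. They come from RefSeq (GRCm38.p6) over the same window, and capitals mark CACGTG, a palindrome that is part of the longer TCACGTGA. Ctsd held 2 matches and TCACGTGA, and Ppargc1a and Cd63 0.
Ppargc1a: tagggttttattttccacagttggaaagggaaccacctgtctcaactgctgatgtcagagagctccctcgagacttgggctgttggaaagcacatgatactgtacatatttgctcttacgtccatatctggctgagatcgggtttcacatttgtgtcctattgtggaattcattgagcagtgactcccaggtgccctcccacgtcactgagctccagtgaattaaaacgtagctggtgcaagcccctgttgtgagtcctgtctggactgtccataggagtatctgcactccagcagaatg
Ctsd: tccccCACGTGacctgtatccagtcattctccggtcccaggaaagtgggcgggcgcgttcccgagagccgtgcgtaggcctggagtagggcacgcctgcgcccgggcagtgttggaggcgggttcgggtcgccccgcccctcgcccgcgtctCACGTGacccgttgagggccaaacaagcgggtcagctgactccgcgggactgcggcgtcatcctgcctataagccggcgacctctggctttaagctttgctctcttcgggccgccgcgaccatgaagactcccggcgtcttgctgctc
Cd63: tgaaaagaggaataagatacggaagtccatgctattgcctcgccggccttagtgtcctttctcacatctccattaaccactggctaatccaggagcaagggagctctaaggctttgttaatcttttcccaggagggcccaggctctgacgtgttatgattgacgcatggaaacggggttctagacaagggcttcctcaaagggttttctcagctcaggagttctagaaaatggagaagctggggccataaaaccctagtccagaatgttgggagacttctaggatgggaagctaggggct
CACGTG occurs in 2349 of 32851 promoters (7.15%). Of the 20 lysosomal genes, 15 had an entry and 6 held it (Atp6v0d1, Ctsd, Ctsl, Gla, Lamp1 and Lgmn), and of the 13 folliculin genes, all with an entry, 3 held it (Fnip1, Mcoln1 and Rragc). TCACGTGA occurs in 320 promoters (0.974%), in 3 of the 15 (Atp6v0d1, Ctsd and Gla) and in 1 of the 13 (Mcoln1). The other patterns matched in few of both lists. CATGTGAC was in 1 and 0, TGANTCA in 2 and 2, TTCNNGAA in 2 and 1, AGATAA in 4 and 0, and both NF-kappaB patterns in 0. CACGTG was put in capitals after its matches had been seen.

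Of the 14 collagen and matrix genes, 13 had enough counts in each comparison. Fn1, which encodes fibronectin, had a ratio of 0.356 [0.317 to 0.401] between the libraries and Col18a1 of 0.403 [0.351 to 0.461], and the collagen gene Col3a1 of fibroblasts fell past 4-fold from 48 to 4 UMIs (0.0674 [0.0176 to 0.184]). Without the selected cell that held most UMIs of the gene in control, the ratio was 0.128 for Col3a1. The median was -0.25 beside -0.52, -0.53 and -0.37, with 0 past 4-fold higher, 1 lower (0.526% of all genes) and 3 past 2-fold lower (3.65%). Against the other lymphatic cells 3 were higher in both libraries, 6 lower in both and 4 opposite, with medians of -0.32 in control and -0.25 in Flcn iΔEC. Heat shock genes, 10 of 10 measured, had a median of 0.37 beside 0.08, 0.28 and 0.71, with Hspa1a and Hspa1b past 4-fold (0.482% of all genes), and against the other lymphatic cells 6 were higher in both libraries, 0 lower in both and 4 opposite, with medians of 0.08 in control and 0.19 in Flcn iΔEC. The 12 immediate early genes, which dissociation can induce, had a median of -0.40 beside -1.08, 0.19 and 0.03 with 0 past 2-fold, and against the other lymphatic cells 1 was higher in both libraries, 2 lower in both and 9 opposite, with medians of -0.16 in control and 0.61 in Flcn iΔEC.

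Medians of 6 of the 11 lists of vessel identity differed in direction between the libraries, those of lymphatic, collecting or valve, ceiling, floor, Ptx3-type and arterial genes. Of 18 lymphatic markers, 12 outside the rule were measured, with medians of 0.50 in control and -0.09 in Flcn iΔEC and -0.24 between the libraries. The 8 collecting or valve genes had 0.46 in control and -0.69 in Flcn iΔEC and -0.58, so they stood above the comparison cells in control, where the cells led by Ackr4 prevailed, and below them in Flcn iΔEC. Pan-endothelial genes gave -0.20 in control and -0.54 in Flcn iΔEC and -0.53 between the libraries, the ceiling list 0.60 in control and -0.19 in Flcn iΔEC and -1.15, and the floor list -0.08 in control and 2.22 in Flcn iΔEC and 0.22. Medians for the Marco-type and Ptx3-type lists, each from 2 genes with enough counts, were 1.26 in control and 3.08 in Flcn iΔEC and -1.45 in control and 0.48 in Flcn iΔEC, and between the libraries 2.69 (3 genes) and 0.97 (2 genes). Venous genes had -1.37 in control and -0.94 in Flcn iΔEC, arterial genes 0.61 in control and -0.20 in Flcn iΔEC, blood capillary genes 0.07 in control and 0.42 in Flcn iΔEC and high endothelial venule genes -4.83 in control and -3.20 in Flcn iΔEC, from 5, 3, 4 and 3 genes with enough counts. The last median is that of Fut7, with 1 UMI in the selected cells of each library, and Madcam1 of the same list had -2.33 in control and 1.32 in Flcn iΔEC. Between the libraries these 4 lists (4, 3, 4 and 2 genes) had -0.66, -0.59, -0.30 and -0.05. Of these identity lists, venous and high endothelial venule genes had the lowest medians in both libraries, apart from Ptx3-type genes in control.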

How the data were processed

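The 2 libraries (CD31+ mesenteric cells, 1 control and 1 Flcn iΔEC, each pooled from 3 mice) were read as deposited. The values are UMI counts per gene and cell, which the authors made with Cell Ranger 3.0 on mm10, per the submitters' processing notes. The members and lists were chosen with earlier results of these data known.

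Cells were selected by the rule at the start of the report, with no clustering. Counts were summed over the cells of a class and scaled to CPM. Intervals at 95% were exact: Poisson for levels, conditional for ratios and Clopper-Pearson for shares. Log2 ratios had 1 count added, genes needed at least 50 summed counts, and 4-fold was the threshold. No test was made. The rule for named genes took Marco, Ackr4, Stab2 and Ccl2, examples from each list, and 15 genes each way against the other lymphatic cells. These were outside the selection rule, had at least 100 CPM in the higher class in both libraries and were ranked by the less extreme of both log2 ratios. It also took 10 genes each way between the libraries, with at least 100 CPM in 1 library, leaving out sex-linked, mitochondrial, ribosomal protein and hemoglobin genes. Described were 18 lists by role and 20 marker lists.

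Shares were thinned to 5000 UMIs by drawing without replacement. Scrublet doublets (scanpy 1.11.5) were kept. Leiden clusters (igraph 0.11.9, resolution 1) used lymphatic cells without Marco, Ackr4, Stab2 and Ccl2, with components centred per library. The interval and ratio code was tested on simulated data. The work used Python 3.11.15, numpy 2.4.6, scipy 1.17.1, pandas 2.3.3 and matplotlib 3.10.9. Alternatives were other thresholds, filters, scalings, depths, comparison cells and resolutions. The second threshold of 2-fold, the descriptions by leading gene and by cluster, and the values without 1 cell were added after the data had been seen.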

Additional observations from a re-analysis of the deposited data

Results flagged for a closer look

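Of 200 list genes measured in both libraries, 77 had ratios of selected to other lymphatic cells on opposite sides of 0, and 2 of them passed 2-fold each way, Mrc1 and Madcam1. Over all 7595 genes measured in both libraries and outside the selection rule, 3475 (45.8%) were on opposite sides and 14 (0.184%) passed 2-fold each way. They were flagged because the control library went one way and the Flcn iΔEC library the other. Mrc1, the mannose receptor gene, had a log2 ratio of -1.48 in control and 2.23 in Flcn iΔEC, a difference of 3.71. Madcam1, the addressin gene, had -2.33 and 1.32, a difference of 3.65. It went from 56.0 to 174 CPM in the selected cells and from 285 to 69.8 CPM in the other lymphatic cells, so both classes changed. Neither difference was tested, since each group is 1 library. The requirement of 2-fold each way was set after genes with opposite directions had been seen. Cells led by Marco were 3 of 49 selected cells in control and 10 of 43 in Flcn iΔEC. The mix of selected or comparison cells, the genotype and the sex of the mice cannot be told apart as sources of either difference.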

How the results depend on the processing

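Of 118 main values recomputed under other settings, 69 were the same, 45 moved and 4 reversed. For the named genes against the other lymphatic cells, 209 of 390 values of the less extreme of both log2 ratios were the same and 181 moved, 27 of them because the libraries then differed in direction, a case that this measure does not count as a reversal. In each library by itself, 7 of 390 reversed in control (Glycam1 3, Ccl2 3 and Aqp1 1) and 3 of 390 in Flcn iΔEC (Ccl2, Glycam1 and Flt1). Between the libraries 228 of 280 were the same, 51 moved and 1 reversed. List medians moved in 44 of 442 and 13 of 237 values and none reversed, where the median of a library took the genes with enough counts in that library. With the settings of the report there were 49 and 43 selected cells, log2 ratios of Ccl2 of 4.11 in control and 2.41 in Flcn iΔEC, 10 genes past 4-fold higher and 11 lower in both libraries, and 33 and 36 between them.

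The threshold for the sinus genes mattered more in Flcn iΔEC. With 3 UMIs, 30 Flcn iΔEC cells were selected, Ccl2 there had a log2 ratio of 1.38, and 53 genes were lower in both libraries. With 4 UMIs the numbers were 20 cells, -0.65 (a reversal) and 62 genes. With 3 of the 6 lymphatic genes required, Ccl2 had 3.53 and 2.18 and 5 genes were lower. The log2 ratio of Ccl2 in control reversed in 3 settings that leave out the cell with most Ccl2: it was -0.13 without Scrublet doublets, -0.51 without cells with a Ptprc UMI and -0.12 without the cell with most Ccl2, which left 1.04 in Flcn iΔEC. Without Ptprc cells, 35 and 29 cells were selected, Ccl2 in Flcn iΔEC was 2.68, and 2 genes were higher and 4 lower in both libraries.

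With the mean of CPM per cell, Ccl2 had 2.12 and 2.14. A minimum of 20 counts gave 16 genes higher in both libraries, and 59 higher and 67 lower between them, whereas a minimum of 200 gave 1 higher and 3 lower, and 11 and 11, as more or fewer genes then qualify. Against Lyve1-high cells alone, Ccl2 had 2.62 and 4.13 and 0 genes were lower in both. Against Lyve1-low cells alone, it had 6.11 and 1.49, with 54 genes higher and 1 lower. Where the cells of the cluster with most selected cells were taken, Ccl2 had 5.50 and 2.04, 40 genes were higher and 109 lower, and 18 were higher between the libraries. With cells led by Ackr4 alone, the log2 ratio of Pf4 between the libraries was 2.30 and not -2.47, a reversal. The causes of the other changes were not tested. The settings without the cell with most Ccl2, with cells led by Ackr4 and with cells of that cluster were added after the data had been seen.

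Depth limits the shares and the selection itself, since a cell with few UMIs can miss the threshold of 2. Without thinning, Marco was seen in 25.6% of selected Flcn iΔEC cells, Ackr4 in 85.7% and 32.6%, Stab2 in 36.7% and 81.4%, and Ccl2 in 22.4% of control cells. At 2000 UMIs, Ackr4 was seen in 0% [0 to 8.22] of Flcn iΔEC cells, and Stab2 in 6.12% and 14.0%. At a cluster resolution of 2, 34.9% of Flcn iΔEC cells fell in the cluster with most of them, against 53.5%. No paired analysis was possible because each group is 1 pooled library. The control genotype is not given, sex differs between the libraries, and 92 cells, some with RNA of other cell types, carry all the values.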
